A study of Mus musculus with 2 samples.

Results

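Mir199a-1, Mir199a-2, Mir199b and Mir214 are microRNA genes that lie on the strand opposite to the dynamin genes Dnm2, Dnm3 and Dnm1. They were taken by gene name: each of the 4 has a row in both deposited tables, out of 1973 gene rows, found through its Ensembl identifier in GENCODE M21 on the same genome build (mm10). The material was heart tissue of healthy mouse embryos of strain B6NCrl at 13.5 days, male and female pooled, so the libraries hold RNA of every cell type of the organ. MicroRNA-seq, which sequences RNAs of less than 30 nucleotides, was run on total RNA from separate biosamples of pooled embryos, 1 library each, called biological replicates 1 and 2 and tied to the same donor record. All samples form 1 group (n = 2), and the labels name no treatment, no transgene and no second condition. The questions the data can address are how high these rows stood in the embryonic heart, in what ratio to each other, and how far the libraries differed.

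A microRNA is cut from a hairpin in its primary transcript, and either arm of the hairpin can be loaded into Argonaute as the mature guide. Bases 2 to 8 of the guide, the seed, do most of the pairing with target messages. Dnm3os, the antisense transcript of Dnm3 that gives both miR-199a and miR-214, is known from mesenchymal tissues, where the transcription factor Twist1 drives it, and its loss disturbs skeletal growth in mice. In the heart, miR-214 is known to limit the sodium-calcium exchanger Slc8a1, and miR-199a-3p is known to promote division of cardiomyocytes.

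The sequences are shown first, because they decide which reads could be told apart between the loci. The hairpins are RefSeq's, on GRCm38.p6, and all 4 were found by symbol with the same start and end as in GENCODE. They run 5′ to 3′, and capitals mark the mature arms that RefSeq lists. In Mir199b the first capital stretch is the part that lines up with miR-199a-5p.
Mir199a-1: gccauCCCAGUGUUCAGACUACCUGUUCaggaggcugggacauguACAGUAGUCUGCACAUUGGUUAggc
Mir199a-2: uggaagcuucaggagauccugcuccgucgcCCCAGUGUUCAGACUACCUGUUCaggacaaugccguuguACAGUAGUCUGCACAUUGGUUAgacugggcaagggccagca
Mir199b: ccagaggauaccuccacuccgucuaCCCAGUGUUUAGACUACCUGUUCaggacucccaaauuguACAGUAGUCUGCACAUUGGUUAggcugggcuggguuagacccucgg
Mir214: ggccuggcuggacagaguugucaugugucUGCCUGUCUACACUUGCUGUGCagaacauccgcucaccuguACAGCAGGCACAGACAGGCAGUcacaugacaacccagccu

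The arms themselves are given with the seed in capitals, which groups them by the targets they could pair with.
miR-199a-5p: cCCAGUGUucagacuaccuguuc
5′ stretch of Mir199b: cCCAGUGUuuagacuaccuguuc
miR-199a-3p and miR-199b-3p: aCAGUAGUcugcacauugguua
miR-214-5p: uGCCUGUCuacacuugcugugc
miR-214-3p: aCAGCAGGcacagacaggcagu

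The 3p arm was identical over 22 of 22 bases in Mir199a-1, Mir199a-2 and Mir199b, so 3 loci hold that sequence. The 5p arm miR-199a-5p was held by 2 loci, Mir199a-1 and Mir199a-2. The 5′ stretch of Mir199b equalled it at 22 of 23 bases and differed by the substitution C10U, counted from 1 at the 5′ end, which lies outside the seed. All 3 miR-199 hairpins therefore carry the seeds CCAGUGU and CAGUAGU. Both arms of Mir214 were found at 1 locus only among the mouse hairpins of RefSeq and GENCODE. The first 8 bases of miR-214-3p differ from those of miR-199a-3p at 2 positions, U5C and U8G. One other listed mouse miRNA has a seed in common with an arm of these genes: Mir761 shares CAGCAGG with miR-214-3p, and no read was counted at its row. The limit that a count of 0 allows (3 counts per library) was 0.539 CPM for replicate 1 and 0.497 for replicate 2. CPM is the sense count of a row per 1000000 sense counts of all gene rows.

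Identity between the miR-199 loci runs past the mature arms. Around the 5p arm, Mir199a-1 and Mir199a-2 share an unbroken run of 27 bases, 0 before the mature sequence and 4 after it. Around the 3p arm, Mir199a-1 shares a run of 26 bases with Mir199a-2 and of 28 bases with Mir199b, and Mir199a-2 shares 27 bases with Mir199b. Stretches covered by 18-base runs that another hairpin also holds made up 55 of the 70 annotated bases of Mir199a-1, 55 of 110 of Mir199a-2, 47 of 110 of Mir199b and 0 of 110 of Mir214. The deposited tables keep multi-mapping reads in a class of their own, 26.9% of all reads in replicate 1 and 28.0% in replicate 2. It is taken here that these reads are in no gene row, which no source used here states. Under that reading, a read of the miR-199 3p arm that ends inside the shared run counts at none of the 3 rows, and the miR-199 rows understate the amount of mature miR-199.

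**Figure D1:**
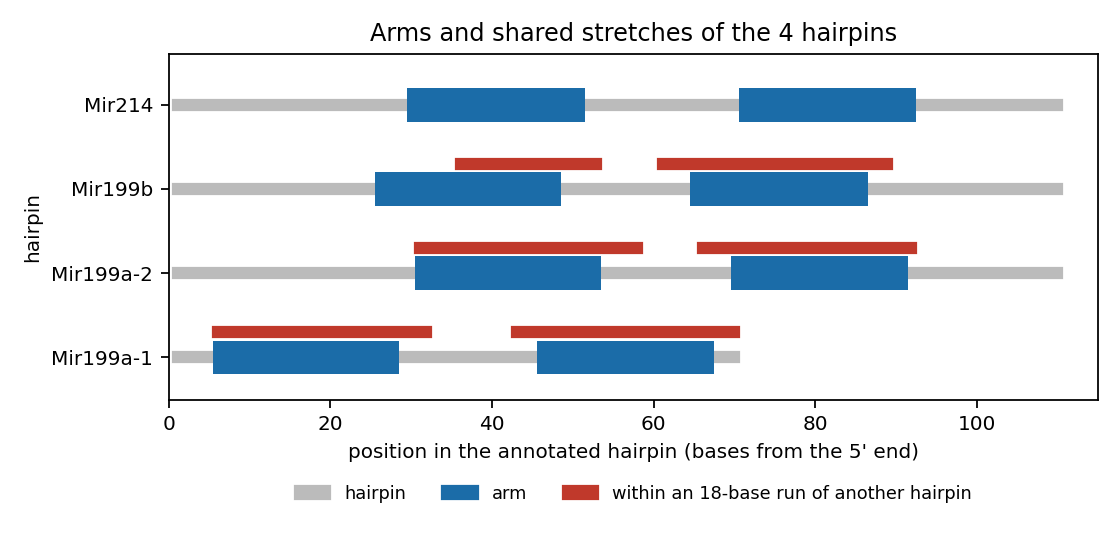
Map of the 4 annotated hairpins, drawn to scale, with position in bases from the 5′ end on the x axis and 1 hairpin per line. Blue boxes are the mature arms (in Mir199b the first box is the stretch aligned to miR-199a-5p) and red bars mark stretches covered by 18-base runs that lie in another mouse hairpin; the bars cover both arms of Mir199a-1 and Mir199a-2, the 3p arm and part of the 5′ stretch of Mir199b, and no base of Mir214.

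The loci lie on 3 chromosomes (mm10). Mir199a-2 (ENSMUSG00000070126.1, chr1:162217814-162217923, plus strand) and Mir214 (ENSMUSG00000065516.1, chr1:162223368-162223477, plus strand) are 5444 bases apart in Dnm3os. Mir214 lies inside an exon of both Dnm3os transcripts that span it. Mir199a-2 lies inside an exon of 2 of the 3 that span it and crosses an exon edge in 1. On the other strand both lie in an intron of all 4 spanning transcripts of Dnm3, a dynamin of brain and testis. Mir199b (ENSMUSG00000092807.1, chr2:32318460-32318569, plus strand) is in an intron of all 10 spanning transcripts of Dnm1, the dynamin of synaptic vesicle recycling, which is read from the minus strand. Mir199a-1 (ENSMUSG00000065547.1, chr9:21496495-21496564, minus strand) is in an intron of all 10 spanning transcripts of Dnm2, the ubiquitous dynamin of endocytosis, read from the plus strand.

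Sense counts totalled 5569959 in replicate 1 and 6039005 in replicate 2. Heart muscle miRNAs were present as the tissue label has it: Mir208b, Mir208a and Mir499, each inside a myosin heavy chain gene, stood at 1627 CPM or more in each library. The neural list summed to 69.9 ± 22.3 CPM, nearly all of it Mir137, and Mir124a-1, Mir124a-2, Mir124a-3 and Mir9-2 held 0 counts. Both listed arms of Mir9-2 have sequences that other hairpins also hold. The counts of 0 at these neural rows are thus not read as absence of the miRNAs. What share multi-mapping reads have in them was not tested. PCR copies of a molecule are counted as separate reads, so the exact intervals and floors describe counting error alone.

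Mir214 stood far above the miR-199 rows. Its row held 16668 counts in replicate 1 and 15231 in replicate 2, which is 2992 CPM (exact 95% interval 2947 to 3038) and 2522 CPM (2482 to 2562). The mean was 2757 ± 333 CPM (SD, n = 2), rank 45 of 1973 rows. Replicate 1 was the higher library, and the intervals did not overlap.

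Mir199b was the highest of the miR-199 rows. It held 2419 and 2200 counts, or 434 CPM (417 to 452) in replicate 1 and 364 CPM (349 to 380) in replicate 2, with a mean of 399 ± 49.5 CPM at rank 111. As for Mir214, replicate 1 was higher and the intervals were apart.

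Mir199a-2, which shares its primary transcript with Mir214, held 257 and 264 counts. Its level was 46.1 CPM (40.7 to 52.1) in replicate 1 and 43.7 CPM (38.6 to 49.3) in replicate 2. The mean was 44.9 ± 1.71 CPM at rank 225, and the intervals of the libraries overlapped.

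Mir199a-1 was the lowest, with 23 and 11 counts. These are 4.13 CPM (2.62 to 6.20) in replicate 1 and 1.82 CPM (0.909 to 3.26) in replicate 2, a mean of 2.98 ± 1.63 CPM at rank 338. Both counts were above the 3 counts that a count of 0 allows, but at this depth the intervals of the libraries overlapped. It was the 1 member below the minimum of 10 CPM used for the test between the libraries; 288 rows reached that mean, and 692 held any count.

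**Figure D2:**
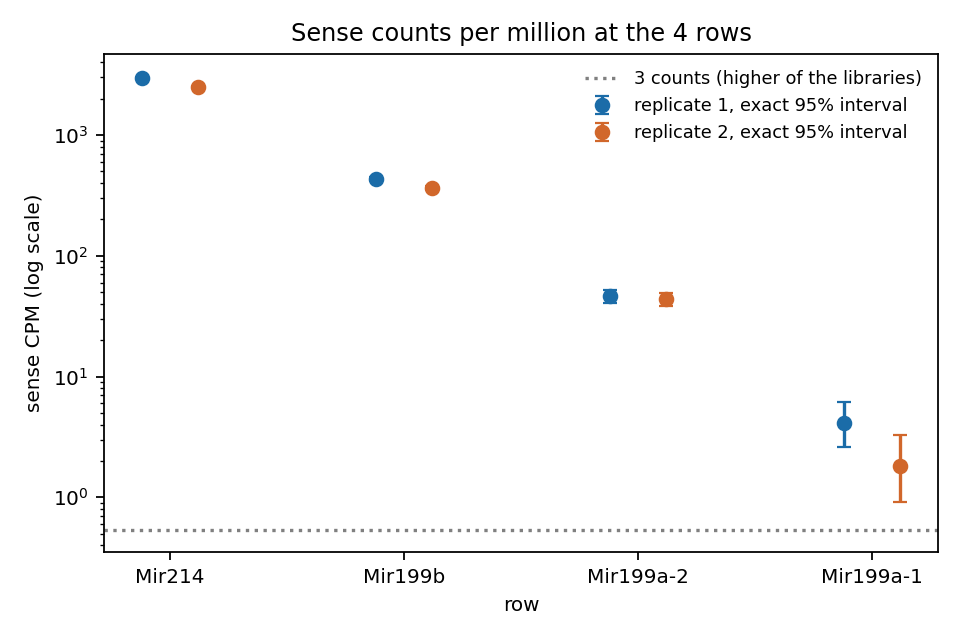
Sense CPM (log scale) at the 4 rows, with 1 point for each library and bars for the exact 95% interval of its count; the dotted line marks 3 counts in the shallower library. The order Mir214, Mir199b, Mir199a-2, Mir199a-1 is the same in both libraries, from 2992 and 2522 CPM down to 4.13 and 1.82 CPM.

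The order of the 4 levels held in both libraries, and each step was larger than its SD between them. The smallest p that exact sign-flip permutation allows with 2 libraries is 0.5, so steps are given as ratios with their interval in each library. Counts were not divided by length. Mir214 had 6.89 times the counts of Mir199b in replicate 1 (6.60 to 7.19) and 6.92 times in replicate 2 (6.62 to 7.24), a log2 ratio of 2.79 ± 0.00483 (SD, n = 2). That ratio was nearly the same in the libraries although both genes were higher in replicate 1.

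Within Dnm3os, Mir214 had 64.9 times the counts of Mir199a-2 in replicate 1 (57.3 to 73.6) and 57.7 times in replicate 2 (51.1 to 65.4), a log2 ratio of 5.93 ± 0.119. The gap within 1 primary transcript was thus wider than that between Mir214 and Mir199b, which lie on different chromosomes. The part that multi-mapping reads of miR-199 play in either gap was not tested.

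Among the miR-199 loci, Mir199b had 9.41 times the counts of Mir199a-2 in replicate 1 (8.27 to 10.7) and 8.33 times in replicate 2 (7.33 to 9.50), a log2 ratio of 3.15 ± 0.124. The Mir199b hairpin holds a 5′ stretch, not a listed arm, that no other hairpin matches over its whole length. The part of that stretch in the ratio was not tested. Mir199b exceeded Mir199a-1 by 105-fold (69.9 to 166) and 200-fold (112 to 401), a log2 ratio of 7.18 ± 0.656. Mir199a-2 exceeded Mir199a-1, whose arms are identical to its own, by 11.2-fold (7.28 to 17.9) in replicate 1 and 24.0-fold (13.2 to 48.7) in replicate 2, a log2 ratio of 4.03 ± 0.780. The intervals of the libraries overlapped for each of these 3 ratios, which rest on 11 to 264 counts at the lower rows. The annotated hairpin of Mir199a-1 is also shorter, at 70 bases against 110, and leaves 15 bases outside the shared runs against 55 in Mir199a-2; the part of either in the difference was not tested.

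Together the 4 rows took 0.348% of all sense counts in replicate 1, with an exact 95% interval of 0.343 to 0.353. The share was 0.293% in replicate 2 (0.289 to 0.298), for a mean of 0.320% ± 0.0385. Mir214 supplied 86.1% and 86.0% of these reads and Mir199b 12.5% and 12.4%. Mir199a-2 supplied 1.33% and 1.49%, and Mir199a-1 0.119% and 0.0621%. These are shares of the counted reads, and the part that multi-mapping reads of miR-199 play in them was not tested.

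No read lay on the opposite strand of any of the 4 rows in either library. At Mir214 a count of 0 allows an opposite share of up to 0.0180% of the sense count in replicate 1 and 0.0197% in replicate 2. At Mir199b the limit was 0.124% and 0.136%, and at Mir199a-2 1.17% and 1.14%. At Mir199a-1 it was 13.0% and 27.3%, so a small share was not detectable there. Over all rows, opposite counts made up 4.96% and 5.18% of the counts on both strands. Counting both strands left the log2 ratios of Mir214 over Mir208b (-3.97), Mir143 (-5.01) and Mir21a (-2.63) as they were. Those abundant rows thus held next to no opposite reads either, so a lack of such reads is not particular to the members. At the 4 loci, every counted read lay on the strand of the antisense transcripts and none on that of the dynamin genes, within the limits given.

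The rows were set against all RefSeq miRNAs with listed arms and a row, 858 in number, by how many arms have a sequence found in no other hairpin. Among 18 rows with 2 listed arms and none unique, 3 reached a mean of 10 CPM (16.7%, exact 95% interval 3.58 to 41.4), and 13 held no count. Mir199a-2 was the second highest of these 18, after Mirlet7a-1 at 87.6 CPM and before Mirlet7c-2 at 40.2 CPM, both of the let-7 family that rises with differentiation. Mir199a-1 was the fourth, and Mir9-3 at 2.00 CPM the fifth. Among 54 rows with 1 unique arm of 2, 29 (53.7%, 39.6 to 67.4) reached 10 CPM. Among 483 rows with both arms unique, the class of Mir214, 184 (38.1%, 33.7 to 42.6) did so. The order of these shares depends on the rows at 0: among rows with at least 1 count, the share at 10 CPM was 60.0% with no unique arm (3 of 5 rows), 63.0% with 1 and 47.3% with both.

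The highest row was Mirlet7a-1 in the class with no unique arm, Mir92-1 at 1977 CPM in the class with 1, and Mir335 at 110067 CPM in the class with both. Of the rows at 10 CPM or more, the median was 44.9 CPM in the class with no unique arm, which is Mir199a-2 itself, 48.2 CPM with 1 and 267 CPM with both. Mir199b has 1 listed arm, miR-199b-3p, which is not unique, and was the highest of 24 such rows, of which 2 (8.33%) reached 10 CPM. Its 5′ stretch, which is not a listed arm, was found at 1 locus only. Mir199b is therefore in this class by the listing, although its hairpin does hold a stretch found in no other. Among 279 rows with 1 listed arm that is unique, 34 (12.2%) reached 10 CPM. These are descriptions over rows that share families and copies, and no test was made of them.

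**Figure D3:**
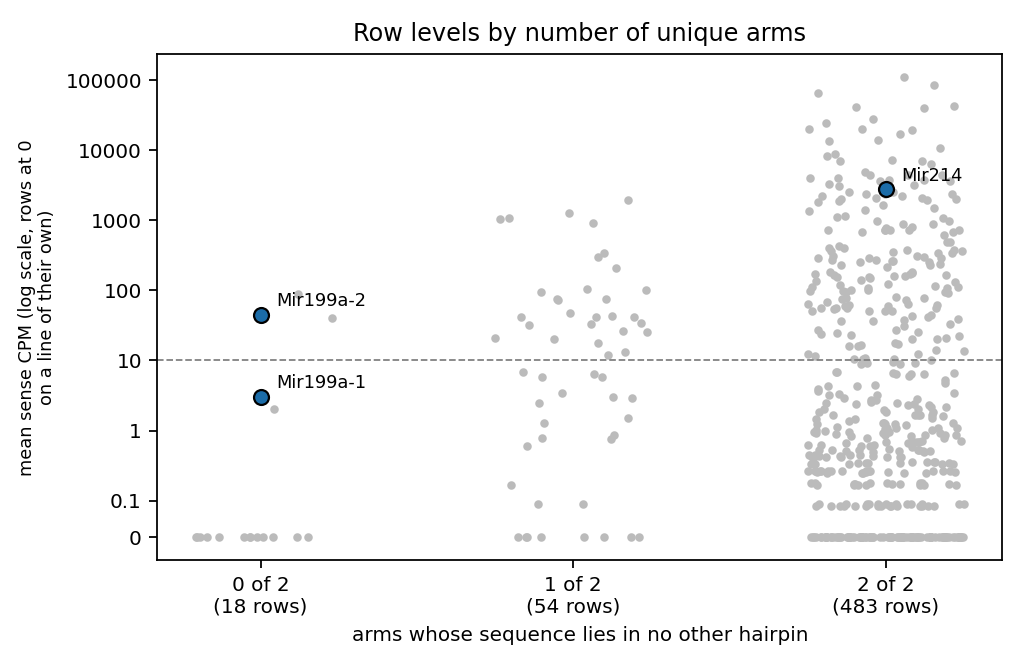
Mean sense CPM (log scale, rows at 0 on a line of their own) of every miRNA row with 2 listed arms, by how many of the arms have a sequence found in no other mouse hairpin; points are spread sideways at random. Mir199a-2 and Mir199a-1 are among the 5 rows with any count in the class of 18 without a unique arm, and Mir214 stands at 2757 CPM in the class of 483 with both arms unique.

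Between the libraries, all members had more CPM in replicate 1. In a two-sided exact binomial test on the counts, with Benjamini-Hochberg adjustment over the 288 rows at 10 CPM or more, Mir214 differed at a log2 ratio of replicate 1 over replicate 2 of 0.25 (adjusted p = 1.46e-51). Mir199b differed by the same test at 0.25 (adjusted p = 7.63e-09), while Mir199a-2 stood at 0.08 (exact binomial test, adjusted p = 0.607). Thus 2 of 3 tested members were higher in replicate 1 at an adjusted p under 0.05, where 43.1% of all tested rows were. None of the 3 passed the further requirement of a ratio of 1.5, which 5.90% of all tested rows passed in either direction. The ratios carry a pseudocount of 1 CPM.

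The median log2 ratio was 0.25 over the 3 members and 0.10 over all 288 rows. A larger absolute ratio than that of Mir199b was seen at 84 rows, than that of Mir214 at 92 and than that of Mir199a-2 at 225. Mir199a-1, at 23 against 11 counts, had a log2 ratio of 0.86 with the pseudocount, and an exact binomial p of 0.0251 before adjustment. Its adjusted p was 0.0562 when rows at a mean of 1 CPM or more were tested (exact binomial test), and 0.24 with no minimum. This test compares the reads of 2 libraries and no condition, and the scaling moves its sign at 1 member. With TMM or DESeq2 factors the median over all rows fell to -0.0031 and -0.016, and Mir199a-2 to -0.025 and -0.038. Mir214 fell to 0.14 and 0.13. Mir199b fell to 0.15 and 0.14, with adjusted p of 0.00105 and 0.00305 (exact binomial test). The size of the difference at these members thus depends on the scaling as well. The DESeq2 size factors were 1 in both libraries, so that alternative compares raw counts.

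**Figure D4:**
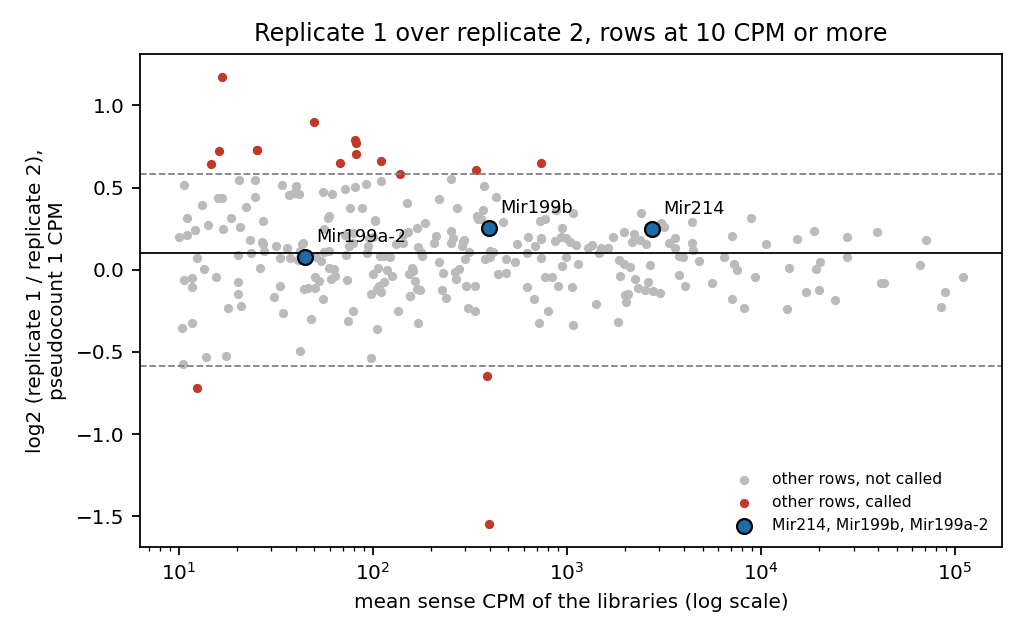
Log2 ratio of replicate 1 over replicate 2 against mean sense CPM (log scale) for the 288 rows at 10 CPM or more, with total-count scaling. The black line is the median of all rows at 0.10 and dashed lines mark a ratio of 1.5; Mir214 and Mir199b lie at 0.25 and Mir199a-2 at 0.08, all inside the dashed lines.

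Marker lists moved between the libraries too. The summed level of the erythroid list (Mir451a, Mir144, Mir486) was 1261 CPM in replicate 1 and 959 CPM in replicate 2. That of the epithelial list (Mir429, Mir200a, Mir200b, Mir200c, Mir141) was 1863 and 1462 CPM. For the leukocyte list, with 2 of 3 rows analysed here (Mir223, Mir155), it was 587 and 473 CPM, although Mir155 alone went the other way (146 and 163 CPM). Endothelial Mir126a stood at 74876 and 66025 CPM. The sum of the neural list was 85.6 and 54.1 CPM, also higher in replicate 1. Its Mir137 was called between the libraries, at a log2 ratio of 0.65 (exact binomial test, adjusted p = 8.64e-10). Erythroid Mir486 at 0.71 (exact binomial test, adjusted p = 2.54e-13) and hepatocyte Mir122 at -1.55 (exact binomial test, adjusted p = 1.46e-250) were called as well. Lower in replicate 1 were the sums of cardiomyocyte miRNAs (50718 and 53387 CPM), smooth muscle miRNAs (85136 and 93532 CPM), the fibroblast and mesenchyme list of Mir21a and the miR-29 genes (16497 and 18093 CPM) and hepatocyte Mir122 (201 and 591 CPM). Nearly all of the smooth muscle sum was Mir143 (84268 and 92601 CPM), and nearly all of the fibroblast and mesenchyme sum was Mir21a (16216 and 17793 CPM). Mir208a (7349 and 7178 CPM), Mir29c (59.8 and 59.3 CPM) and Mir29b-2 (1.08 and 0.662 CPM) went against the sums of their lists. The part of these rows in the difference at Mir214 and Mir199b was not tested. In a whole organ, fewer cells of a type and less RNA per cell cannot be told apart.

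Mir214 was lower than the most abundant row of the cardiomyocyte, endothelial and smooth muscle lists, and higher than Mir499 (1825 ± 281 CPM) and Mir145a (899 ± 44.7 CPM) of the first and last of them. Mir208b, in an intron of the myosin gene Myh7, had 13.9 times its counts in replicate 1 (13.7 to 14.2) and 17.5 times in replicate 2 (17.2 to 17.8), a log2 ratio of Mir214 over Mir208b of -3.97 ± 0.232. Endothelial Mir126a had 25.0 times (24.6 to 25.4) and 26.2 times (25.8 to 26.6) its counts, a log2 ratio of -4.68 ± 0.0461. Smooth muscle Mir143 had 28.2 times (27.7 to 28.6) and 36.7 times (36.1 to 37.3) its counts, a log2 ratio of -5.01 ± 0.271. Each difference was larger than its SD, and in each the ratio was the larger in replicate 2.

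Mir21a, the other abundant miRNA known from fibroblasts, had 5.42 times the counts of Mir214 in replicate 1 (5.33 to 5.51) and 7.05 times in replicate 2 (6.94 to 7.18), a log2 ratio of Mir214 over Mir21a of -2.63 ± 0.269. Of the miR-29 genes, which act on collagen messages, Mir29a held 226 ± 13.7 CPM and Mir29c 59.5 ± 0.356 CPM. Mir29b-1 and Mir29b-2 held 3.44 ± 0.0468 and 0.870 ± 0.293 CPM. Each has 1 unique arm of 2 listed, where Mir199a-1 and Mir199a-2 have none. Mir214 thus exceeded all 4 miR-29 rows, and Mir199b exceeded Mir29a in both libraries.

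**Figure D5:**
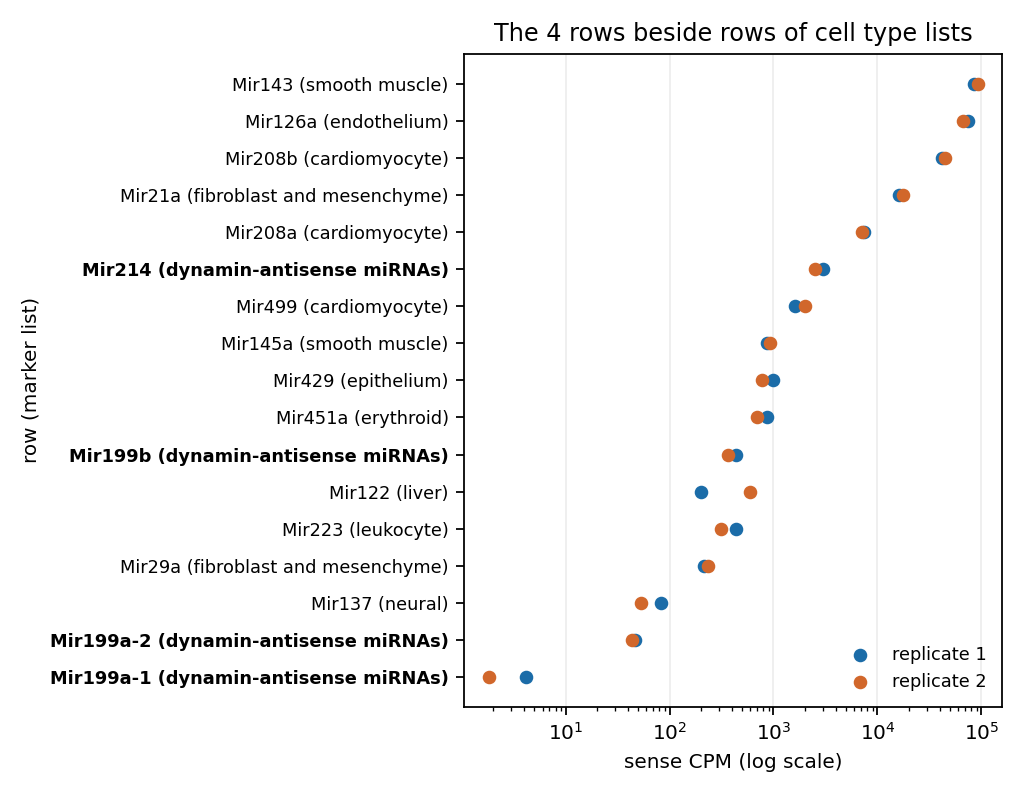
Sense CPM (log scale) in each library of the 4 rows (bold) and of 13 rows from the cell type lists, ordered by mean level, with 1 point per library. Mir214 lies between Mir208a at 7263 CPM and Mir499 at 1825 CPM, and Mir199a-1 is the lowest row shown.

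No likeness of pattern across samples can be measured with 2 libraries, so likeness was taken by level. Around Mir214 stood Mir532 (3028 ± 208 CPM) and Mir18 of the miR-17 cluster (2763 ± 176 CPM) above, and Mir140 of cartilage (2665 ± 38.1 CPM) and Mir181c (2615 ± 93.1 CPM) below. Mir199b stood between Mir339 (403 ± 14.9 CPM) and Mir543 (401 ± 22.8 CPM) above and hepatocyte Mir122 (396 ± 275 CPM) and endocrine Mir375 (386 ± 120 CPM) below. Mir199a-2 stood between Mir30c-2 and Mir378c above and Mir760 and Mir7-1 below, all from 43.6 to 48.2 CPM. Mir199a-1 stood between Mir1948 and Mir7-2 above and Mir3070a and Mir7666 below, which held 13 to 22 counts. Of these 16 neighbours, none was on 1 side of its member in both libraries apart from Mir7-1, which equalled Mir199a-2 at 257 counts in replicate 1 and was lower in replicate 2. The rank of each member among its neighbours is therefore not resolved.

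The only other row on the same strand within 10000 bases of a member was Gm23363, which lies 116 bases before Mir199b (chr2:32318265-32318343, plus strand). It held 4 counts in replicate 1 and 5 in replicate 2, or 0.718 and 0.828 CPM.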

How the data were processed

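Each deposited table gives 3 whole-number counts for a miRNA gene: reads of either strand, sense reads and reads of the opposite strand. The authors made them from alignments to mm10 with GENCODE M4, per the deposited notes. Aligner, counter, trimming and filters: not given in the sources used here. Sense counts were used, without the read classes, as CPM on their sum. Of 1973 identifiers, 1894 matched GENCODE M21. Hairpins and arms came from RefSeq (GRCm38.p6), of which 869 matched a row by symbol; copies were sought in these and in 2202 GENCODE miRNA sequences.

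Ratios of rows carry exact conditional binomial 95% intervals, and shares exact Clopper-Pearson intervals. Rows were tested between the libraries with an exact binomial test, total counts as offset, and called where the Benjamini-Hochberg adjusted p was under 0.05 and the ratio 1.5 or more. The step was tried on simulated Poisson counts without variation between libraries, which is what the binomial test assumes. That run therefore cannot show how the test does with such variation. Mir3120, Mir126b, Mir142 and 1 neural symbol of the lists were not analysed here. The members, lists and tests were chosen with earlier results of these data known. Genes named were the members, their neighbours by level and position, miRNAs with their seeds, and the listed markers; rows named as the highest of an arm class were chosen after their values were seen. Tools were Python 3.11.15, scipy 1.17.1, pandas 2.3.3, R 4.3.3, edgeR 4.0.16 and DESeq2 1.42.0, the latter pair for scaling factors only, as alternatives. Other alternatives were the minimum level, the pseudocount, the ratio, both strands, the denominator, and leaving out the top row or a library.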

Additional observations from a re-analysis of the deposited data

How the results depend on the processing

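With a pseudocount of 1 CPM, all 9 ratios between rows moved by less than the SD between the libraries. Counting both strands could not change a ratio between members, which have no opposite reads. Leaving out 1 of 2 libraries cannot move a mean by an SD, so that alternative says nothing about stability here. With all reads of the library as denominator, the levels were 1.40 CPM for Mir199a-1, 21.3 CPM for Mir199a-2, 189 CPM for Mir199b and 1307 CPM for Mir214. Without the most abundant row, Mir335, they were 50.5 CPM for Mir199a-2 and 3098 CPM for Mir214. With both strands counted, Mir199a-2 stood at 42.7 CPM. The log2 ratio of replicate 1 over replicate 2 at Mir199a-2 turned to -0.0251 with TMM factors and -0.0379 with DESeq2 size factors. Either set scales each library as a whole and lowered this ratio at all 4 members. Mir214 stood at 0.143 and 0.130, and Mir199b at 0.150 and 0.137. The DESeq2 factors, at 1 in both libraries, amount to a comparison of raw counts. The 17 rows called between the libraries, 14 higher in replicate 1 and 3 in replicate 2, became 16 with either set, 8 in each direction. They became 39 at a minimum of 1 CPM, 30 with no minimum and 2 at a ratio of 2. Counting only rows with at least 1 count, 60.0% of rows with no unique arm, 63.0% with 1 and 47.3% with both reached 10 CPM, which turns the order of the first and the last. Depth limits Mir199a-1, at 23 and 11 counts. No paired analysis was possible because the samples form 1 group.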
